A study of Mus musculus with 12 samples.

Results

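The proteasome subunit genes were described in the somatosensory cortex of newborn mice. The members were all gene symbols that begin with Psm, continue with a letter from a to g and then a number, and that had at least 10 counts summed over all libraries, which gave 49 of the 24452 symbols in the count tables. The symbols matching the pattern numbered 50, and Psme2b, a near copy of the activator gene Psme2, was left out with 3.4 counts. Psmc3ip matched by its name alone: it encodes a meiotic recombination factor that is named for binding a proteasome ATPase and is no subunit of the particle.

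RNA was sequenced from male C57BL/6 mice on postnatal day 7, 8 h after the second of a pair of intraperitoneal injections of ethanol or saline. WT mice and p53 KO mice, which carry the Trp53tm1Tyj allele of the tumour suppressor gene Trp53 in every cell and were bred from heterozygous parents, each received either agent, and each of the 4 groups held 3 libraries, so WT saline, WT ethanol, KO saline and KO ethanol were compared with n = 3. The comparisons asked how the cortex responds to a developmental ethanol exposure with and without p53, and the members were tested in the WT and KO ethanol contrasts, in the KO versus WT contrasts under each agent, as main effects of Treatment and Genotype, and for a Genotype x Treatment interaction. The cortex had been taken by laser microdissection in some mice and by hole punch in others, and which library came from which method was not given in the sources used here.

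The proteasome is the large protease that degrades proteins tagged with ubiquitin. Its barrel-shaped core particle is a stack of rings: outer rings of alpha subunits form the gate, and inner rings of beta subunits hold the proteolytic sites, of which Psmb5, Psmb6 and Psmb7 encode the constitutive ones and Psmb8, Psmb9 and Psmb10 the interferon-inducible ones of the immunoproteasome. The regulatory particle that caps the core has a base, whose Psmc ATPases unfold the substrate, and a lid, which holds the deubiquitinase encoded by Psmd14, and in the developing brain the proteasome is known for its part in synapse formation and in the turnover of short-lived proteins, p53 among them.

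To show where transcription of the beta-ring genes begins, the 150 bases before the annotated start are printed below for the 4 of the 7 constitutive beta-ring genes that have a window in the RefSeq promoter set, together with Psmd11, the lid gene that moved against the others in the comparisons that follow. The sequences are from RefSeq, build GRCm38.p6, each 5′ to 3′ on the strand of its gene, and capitals mark TGACNNNGC, the element of the CNC-bZIP factors to which the proteasome regulator encoded by Nfe2l1 belongs, or CCGGAAG, an ETS factor element, on either strand. Psmb3 lies at chr11:97703284-97703433 on the plus strand, Psmb4 at chr3:94886959-94887108 on the minus strand, Psmb5 at chr14:54617996-54618145 on the minus strand, Psmb6 at chr11:70525207-70525356 on the plus strand and Psmd11 at chr11:80428465-80428614 on the plus strand.
Psmb3: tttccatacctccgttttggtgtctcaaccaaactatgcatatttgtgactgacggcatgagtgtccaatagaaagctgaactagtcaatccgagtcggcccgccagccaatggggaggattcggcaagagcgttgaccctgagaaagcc
Psmb4: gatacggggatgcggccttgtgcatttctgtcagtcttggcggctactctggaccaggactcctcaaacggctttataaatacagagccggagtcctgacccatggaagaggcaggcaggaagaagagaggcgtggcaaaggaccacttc
Psmb5: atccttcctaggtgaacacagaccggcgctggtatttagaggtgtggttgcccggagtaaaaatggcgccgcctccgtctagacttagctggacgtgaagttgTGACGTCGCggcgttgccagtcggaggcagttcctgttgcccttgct
Psmb6: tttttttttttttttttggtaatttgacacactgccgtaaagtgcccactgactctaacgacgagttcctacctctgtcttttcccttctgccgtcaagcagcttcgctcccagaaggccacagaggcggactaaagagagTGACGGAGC
Psmd11: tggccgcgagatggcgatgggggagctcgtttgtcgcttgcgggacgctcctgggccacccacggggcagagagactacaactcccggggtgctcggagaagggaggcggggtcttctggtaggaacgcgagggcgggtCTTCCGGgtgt

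Over the whole promoter windows, which run from 250 bases before to 50 bases after the start, 41 of the 49 members had an entry. TGACNNNGC stood in 6 of the 41 (14.6%) and in 14.0% of all 27025 genes with a window. CCGGAAG stood in 15 of the 41 (36.6%) and in 9.93% of all genes. Of these 15, 9 were base or lid genes, among them Psmc1, Psmc2, Psmd4 and Psmd11, and none was one of the 4 beta-ring genes. The CCAAT box stood in 36.6% of the members against 41.1% of all genes, the GC box GGGCGG in 56.1% against 38.2%, and TATAAA in 9.76% against 15.7%, each counted on either strand. These are matches of letters only and no evidence of binding.

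Library depth ran from 719735 to 17066392 counts, and the members held between 0.462% and 0.992% of them. Levels are given as normalized CPM, counts scaled to a common depth that TMM factors adjust. The summed member level was 5818, 17610 and 8955 CPM in the WT saline libraries, 4027, 5502 and 6299 in WT ethanol, 4266, 6216 and 4412 in KO saline, and 10680, 4107 and 4232 in KO ethanol. Thus 2 libraries stood apart on this scale before any comparison. Of the 47 members that passed the low-count filter, 28 had their highest level in WT saline replicate 2. Another 14 had it in the library labelled KO ethanol replicate 1, which was also the shallowest. WT saline replicate 2 had the lowest TMM factor, 0.564, against 0.832 to 1.23 in the others. By library size alone, its summed level was 9923 CPM, beside 8880 in the library labelled KO ethanol replicate 1 and 7669 in WT saline replicate 3. In WT saline replicate 3, 44 of the 47 members lay above their median over the libraries. The core rings made up 70.3% of the member counts in WT saline replicate 2 and between 40.8% and 53.3% in the other libraries. WT saline replicate 1 and the library labelled KO ethanol replicate 1 are also the only libraries whose names begin with the letter L.

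The targeted gene could not check the labels by its level, since Trp53 still gave between 3.68 and 28.7 CPM in all 12 libraries. Its transcript form NM_001127233 took 7.01% to 23.1% of the Trp53 counts in the WT libraries. It took 48.3% to 70.6% in 5 of the 6 KO libraries, but 7.01% of 14 counts in the library labelled KO ethanol replicate 1. Exactly this share also stood in 3 WT libraries, on 51, 20 and 78 counts. An equal share at such unlike counts cannot check the label of that library. Marker genes of red blood cells had a summed level of 337 to 1319 CPM in WT saline and 765 in the library labelled KO ethanol replicate 1 against 29.1 to 145 in the other 8 libraries. WT saline replicate 1, at 337, had a summed member level of 5818 CPM and a median member deviation of -0.02. Of the red blood cell markers, 5 of 5 were lower in WT ethanol and in KO saline than in WT saline at an adjusted p under 0.30. The choroid plexus markers varied from 1.67 to 4997 CPM in sum, with Ttr at 0 in 1 library and up to 4919 in another. Neuronal markers summed to 4715 to 6996 CPM in WT saline and 2772 to 4112 in WT ethanol, and of 6 genes Tubb3 was called lower and Gad1 higher. Over all tested genes, 10.4% were called lower and 12.1% higher in WT ethanol, and 13.4% and 12.4% in KO saline. In the other lists, 3 of 7 microglial genes were called lower in both contrasts against WT saline, 2 of 6 endothelial and mural genes higher in both, 1 and 2 of 6 oligodendrocyte lineage genes higher, and 0 of 5 astrocyte genes. The part of these differences in the results below was not tested. The labels do not say whether the libraries of a group came from separate mice. The methods describe several mice per group set aside for molecular assays and 3 RNA samples per group sequenced among those that passed quality control, and p-values measure the spread between these libraries. In such bulk tissue, fewer cells of a type and less RNA per cell cannot be told apart.

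**Figure D1:**
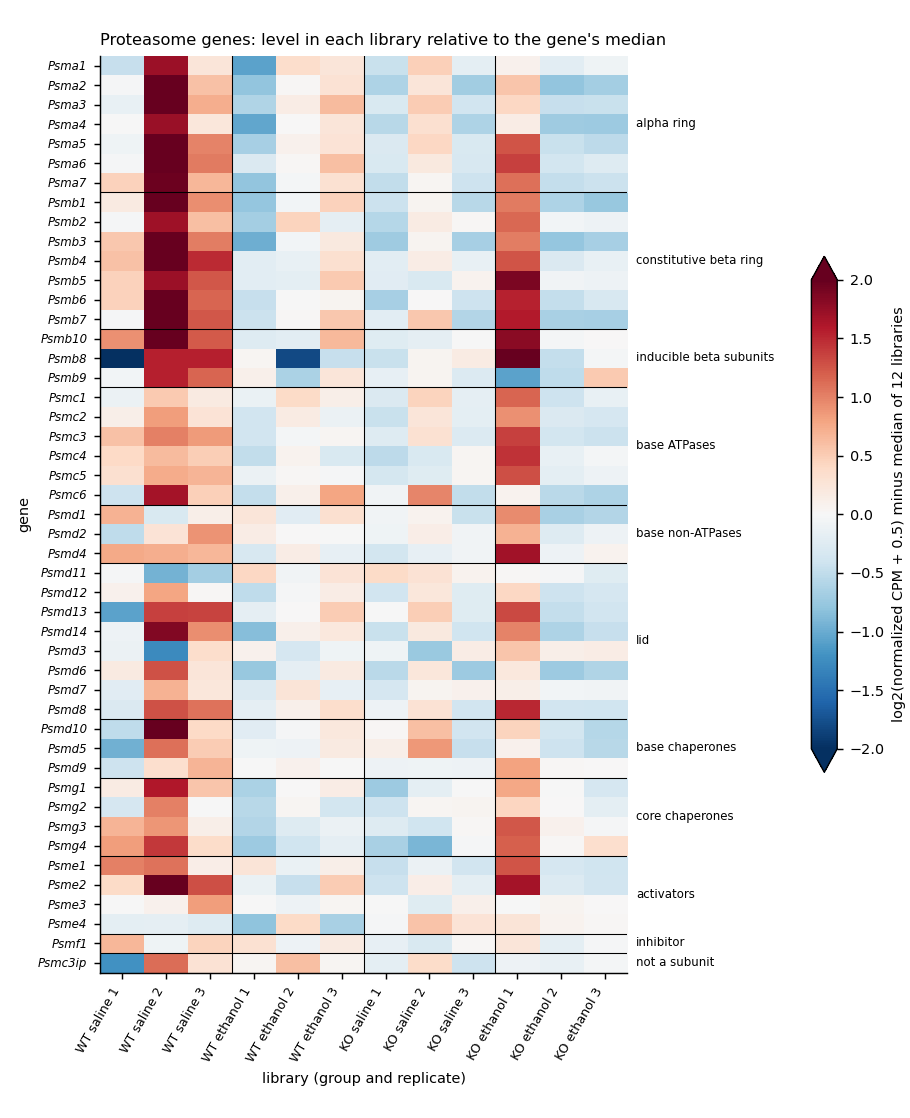
Heat map of the 47 tested members in the 12 libraries, with 1 row per gene, grouped by role, and 1 column per library. Colour gives log2(normalized CPM + 0.5) minus the gene's median over the libraries; WT saline replicate 2, WT saline replicate 3 and the library labelled KO ethanol replicate 1 stand highest, with median deviations of 1.37, 0.60 and 0.99.

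Per length, the core genes were the most abundant members. The 13 highest median levels in the deposited RPKM, which scales reads by transcript length and depth, were all those of alpha- or beta-ring genes, from Psmb3 at 261 to Psma5 at 106, and only Psma3, at 97.7, of the 14 core genes fell below a base gene. The base and lid genes had median RPKM from 16.04 for Psmd11 to 106 for Psmc1, with a median of 80.5 over the 17 genes against 163 over the 14 core genes. The lowest levels were those of Psmb8 (1.07), Psmb9 (0.562), the testis alpha subunit gene Psma8 (0.251) and the thymus beta subunit gene Psmb11 (0.0185). The 2 highest did not differ beyond their spread in WT saline, where Psmb3 stood at 347 ± 38.5 and Psmb7 at 302 ± 96.5 RPKM (mean ± SD, n = 3). Psma8, with 89 counts in all, and Psmb11, with 24, did not pass the filter on low counts and were not tested. Psmb11 had 0 counts in the 3 WT saline libraries and in the library labelled KO ethanol replicate 1, and between 1 and 6 in the others. In WT saline, where 3 counts correspond to 0.223 to 1.54 CPM, such a count of 0 limits the level only to below these values.

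After ethanol, 23 of the 47 tested proteasome genes were called lower in WT mice, and the summed levels of the groups overlapped, with 6299 CPM in WT ethanol replicate 3 against 5818 in WT saline replicate 1. In all, 24 members passed the study's adjusted p of 0.30 in edgeR's quasi-likelihood test, the other being Psmd11, which was higher. Over all 14739 genes tested, 22.5% passed, 10.4% as lower and 12.1% as higher. The median log2 fold change of the members was -0.86, against 0.06 for all genes. No member passed an adjusted p of 0.05 (lowest 0.189), which 0.0746% of all genes did, whereas 18 members passed an unadjusted p of 0.05 (18.3% of all genes). In 12 members every WT ethanol library lay below every WT saline library, as in 8.30% of all genes, and none lay wholly above, as in 11.2%. The 24 calls became 11, all lower, without the libraries in which the members stood highest, WT saline replicate 2 and the library labelled KO ethanol replicate 1, when 16.7% of all genes passed (7.18% as lower). Leaving out 1 library at a time gave 41 calls without WT saline replicate 1 (48.7% of all genes), 15 without WT saline replicate 3, KO saline replicate 2 or KO ethanol replicate 2, 11 without KO saline replicate 1, 1 without WT ethanol replicate 2, and 0 without WT saline replicate 2 (1.30% of all genes) or WT ethanol replicate 1. Over all genes, the fits with 15 calls had 2134 of 15029, 2495 of 15031 and 2218 of 15008 called. Without KO saline replicate 1, WT ethanol replicate 2 and WT ethanol replicate 1 these were 1895 of 15036, 833 of 15026 and 71 of 14908. When trends with transcript length and GC content were removed from each library, 3 members were called (13.2% of all genes). The median was then -0.49 for the members and -0.19 for all genes. On the deposited RPKM, limma called 1 member (2.99% of all genes), with a median of -0.16. Scaling by library size alone moved the median of all genes to 0.49 and that of the members to -0.38, with 8 members called, 7 lower and 1 higher (27.5% of all genes).

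The lower genes lay mainly in the core particle. Of its 14 ring genes, 13 were called, all lower, with a median log2 fold change of -1.41. Of the 17 base and lid genes, 3 were called lower and 1 higher, with a median of -0.59. Without the 2 libraries that stood apart, these counts were 4 of 14 (median -0.65) and 3 of 17 (median -0.36). The ring genes were also shorter, with median transcript lengths of 1165 bases in the alpha ring and 899 in the constitutive beta ring. Those of the base ATPase, base non-ATPase and lid genes were 1613.5, 2961 and 1742.5 bases. Whether the core and the regulatory particle differed, and the part of length in it, was not tested.

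All 7 constitutive beta-ring genes were called lower, and Psmb4, a structural ring subunit, had the smallest p of all members. Psmb4 stood at 253, 953 and 477 CPM in WT saline and at 146, 153 and 212 in WT ethanol. The groups did not overlap, and the highest library was more than any other apart from the rest. Its log2 fold change was -1.72 ± 0.52 (SE; edgeR, adjusted p = 0.189), and it was -1.13 ± 0.34 (adjusted p = 0.168) without the 2 libraries. Psmb5, which encodes the chymotrypsin-like site, had 154, 366 and 264 CPM in WT saline and 95.6, 97.1 and 160 in WT ethanol. Its groups overlapped by a narrow margin, with a log2 fold change of -1.15 ± 0.52 (adjusted p = 0.257). Psmb6, with the caspase-like site, went from 257, 770 and 418 CPM to 136, 185 and 195, without overlap (-1.49 ± 0.55, adjusted p = 0.215). For Psmb7, with the trypsin-like site, the values of 211, 1454 and 511 CPM in WT saline overlapped those of WT ethanol, 159, 219 and 314 (-1.65 ± 0.72, adjusted p = 0.245). Psmb7 was not among the genes called without the 2 libraries. Psmb1, Psmb2 and Psmb3 fell by 1.43, 1.01 and 1.84 on the log2 scale.

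The alpha ring, which forms the gate of the core, had 6 of its 7 genes called, all lower. Psma5 had the smallest p, with 126, 830 and 268 CPM in WT saline and 84.9, 143 and 163 in WT ethanol (log2 fold change -1.65 ± 0.64, adjusted p = 0.220). Its groups overlapped, since WT saline replicate 1 lay below 2 of the WT ethanol libraries. Psma1 was the member of the ring that was not called (-0.83, adjusted p = 0.398). No alpha-ring gene was called without the 2 libraries that stood apart, when their median was -0.43.

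The inducible beta subunit genes, through which interferon reshapes the core, were all called lower, on unequal evidence. Psmb10 carried 89.1% to 99.1% of their counts. It stood at 54.0, 133 and 67.1 CPM in WT saline and at 23.6, 24.2 and 44.5 in WT ethanol. The groups did not overlap, and its log2 fold change of -1.46 ± 0.51 (adjusted p = 0.208) was -1.01 ± 0.34 (adjusted p = 0.200) without the 2 libraries. Psmb8 had 0, 35 and 86 counts in the WT saline libraries and 34, 1 and 13 in WT ethanol, and Psmb9 had 1, 14 and 25 against 11, 1 and 8, so that their fold changes of -1.95 ± 0.97 and -1.68 ± 0.76 rest on few counts and on overlapping groups. Per length, the 3 inducible genes had 6.16%, 4.08% and 4.49% of the counts of Psmb5, Psmb6 and Psmb7 in WT saline and 4.75%, 3.54% and 5.08% in WT ethanol, which overlapped. In the deposited RPKM the shares were 6.33%, 8.08% and 5.98% against 3.53%, 3.24% and 5.07% and did not overlap. Neither difference was tested. Among 5 tested genes of the interferon response, B2m was called lower (-1.88, adjusted p = 0.216) and none higher, and the summed level of that list was 68.4, 711 and 152 CPM in WT saline and 91.3 to 104 in WT ethanol.

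In the base, 1 of 6 ATPase genes and none of 3 non-ATPase genes were called. Psmc3 had 262, 353 and 317 CPM in WT saline and 134, 170 and 180 in WT ethanol, a change of -0.95 ± 0.46 (adjusted p = 0.284). Psmd4, which encodes a ubiquitin receptor, had even WT saline values of 196, 193 and 184 CPM, all above the 93.0, 130 and 104 of WT ethanol, yet its change of -0.81 ± 0.43 had an adjusted p of 0.312. In the deposited RPKM its values were neither even nor apart, at 125, 80.3 and 93.6 in WT saline and 73.4, 92.5 and 64.9 in WT ethanol. Psmd4 and Psmc4 were called without the 2 libraries, at -0.83 ± 0.28 (adjusted p = 0.201) and -0.69 ± 0.30 (adjusted p = 0.282), and 9 of the 11 genes called then were among the 24. On the normalized CPM scale WT saline replicate 2 did not stand apart in these base genes. Psmc4 stood at 160, 189 and 171 CPM in WT saline and at 86.4, 128 and 98.7 in WT ethanol. That scale includes the TMM factor of 0.564 for WT saline replicate 2. In the deposited RPKM, Psmc4 was lowest of WT saline in that library, at 96.9, 63.6 and 77.1 against 66.65, 87.7 and 57.4, with overlap.

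The lid had 2 of 8 genes called lower and 1 higher. Psmd14, the deubiquitinase, went from 122, 474 and 252 CPM to 72.6, 141 and 152, with overlap (-1.22 ± 0.54, adjusted p = 0.250). The other was Psmd6, a structural subunit. The structural lid gene Psmd11 was the one called member with the opposite sign. Its levels were 30.9, 15.99 and 19.3 CPM in WT saline and 41.9, 29.9 and 37.9 in WT ethanol (0.75 ± 0.34, adjusted p = 0.259), with an overlap of 1 library. It was lowest in WT saline replicate 2, where most members were highest. Its adjusted p was 0.415 without the 2 libraries that stood apart.

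Among the assembly chaperones, 3 of 4 that build the core were called lower and none of the 3 that build the base. Psmg4 had 24.7, 36.9 and 17.7 CPM in WT saline and 8.04, 10.2 and 12.0 in WT ethanol, with no overlap (-1.39 ± 0.44, adjusted p = 0.195, and -1.08 ± 0.39, adjusted p = 0.215, without the 2 libraries). Psmd10, a base chaperone also known as gankyrin, had 11.8, 72.0 and 22.7 CPM against 14.5, 16.9 and 19.8, which overlapped (-1.07 ± 0.55, adjusted p = 0.307).

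Of the activators, which open the gate of the core in place of the regulatory particle, Psme2 was called lower. It stood at 43.7, 155 and 82.9 CPM in WT saline and at 30.6, 24.2 and 47.8 in WT ethanol (-1.46 ± 0.56, adjusted p = 0.218), with overlapping groups, and how reads were shared with its near copy Psme2b is uncertain. Its partner Psme1 had 136, 143 and 73.3 CPM against 80.7, 61.3 and 73.1 (-0.71 ± 0.43, adjusted p = 0.381). The nuclear activator genes Psme3 (-0.38 ± 0.31, adjusted p = 0.510) and Psme4 (-0.04 ± 0.35, adjusted p = 0.963) were not called, nor was Psmf1, which encodes a proteasome inhibitor (-0.24 ± 0.32, adjusted p = 0.703). Psmc3ip was not called either (-0.16 ± 0.54, adjusted p = 0.893). With library size alone in place of the TMM factors, Psme3, Psme4, Psmf1 and Psmc3ip had positive values.

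**Figure D2:**
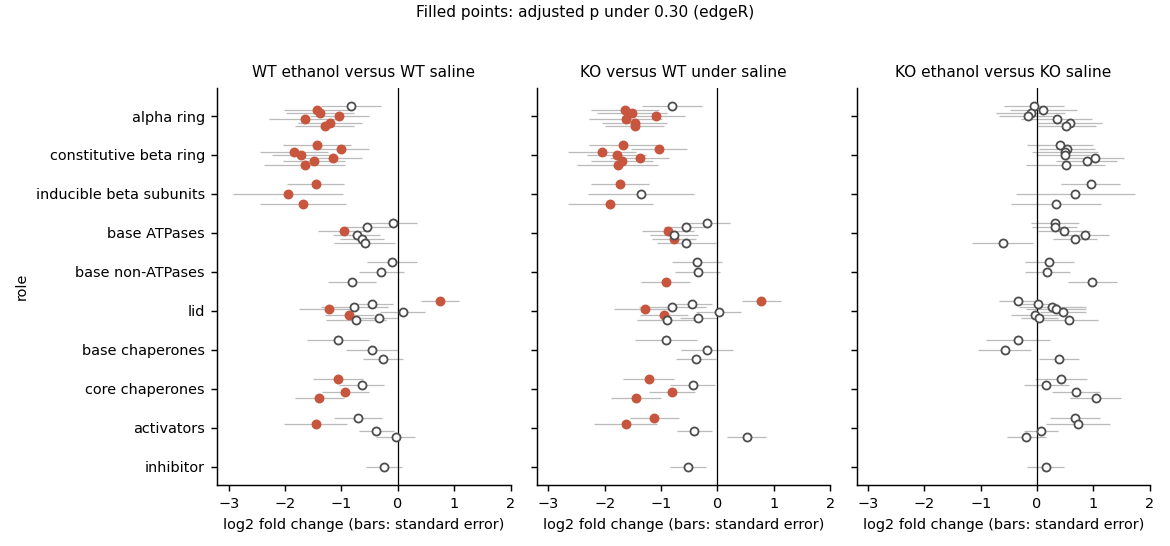
Log2 fold changes (horizontal axis) of the tested proteasome genes by role (vertical axis) in 3 comparisons, with 1 point per gene, bars for the standard error and filled points for an adjusted p under 0.30. In both contrasts against WT saline, 13 of 14 core ring genes are filled and lie to the left of 0; in KO ethanol versus KO saline no gene is filled.

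KO and WT mice were next compared under saline, where 25 of the 47 tested members were called lower in KO mice. This contrast shares the WT saline libraries with the one above, so both rest on the same 3 control libraries, and the summed levels overlapped here too (6216 CPM in KO saline replicate 2). Of the 47 members, 26 were called, 25 lower and 1 higher, where 25.8% of all genes were called, 13.4% as lower and 12.4% as higher. The members' median was -0.92, against 0.04 for all genes. None passed an adjusted p of 0.05, which 0.0543% of all genes did, and 21 passed an unadjusted p of 0.05 (19.6% of all genes). All KO saline libraries lay below all WT saline libraries in 16 members (10.0% of all genes) and above them in 2, Psmd11 and Psme4 (12.9%). Without WT saline replicate 2 and the library labelled KO ethanol replicate 1, 15 members were called, all lower (17.6% of all genes, 8.20% as lower), with a median of -0.62, and 13 of them were among the 26. Leaving out 1 library gave 43 calls without WT saline replicate 1 (50.4% of all genes), 6 without KO saline replicate 3, 0 without WT saline replicate 2 (0.246%), KO saline replicate 1 or KO saline replicate 2, and 19 to 28 otherwise. Over all genes, 1437 of 15023 were called without KO saline replicate 3. Without KO saline replicates 1 and 2 these were 9 of 15036 and 9 of 15031, and otherwise they ran from 2052 of 15029 to 5010 of 15007. With length and GC trends removed, 5 were called (8.28% of all genes), limma on the RPKM called 2 (3.29%), and scaling by library size alone called 15, 13 lower and 2 higher (27.5%).

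By role, 13 of 14 core ring genes, 2 of 3 inducible beta genes, 5 of 17 base and lid genes, 3 of 4 core chaperones and 2 of 4 activators were called lower, and Psmd11 higher. Psmb4 stood at 147, 187 and 153 CPM in KO saline, below all 3 WT saline libraries (-1.79 ± 0.52, adjusted p = 0.176). Psmb5 had 94.8, 89.7 and 117 CPM (-1.38 ± 0.52, adjusted p = 0.193), Psmb6 118, 189 and 141 (-1.69 ± 0.55, adjusted p = 0.176), and neither overlapped WT saline. Psmb7, at 185, 312 and 143, did overlap (-1.77 ± 0.72, adjusted p = 0.207).

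The alpha-ring gene with the smallest p was Psma7, at 146, 209 and 153 CPM in KO saline against 280, 797 and 324 in WT saline (-1.47 ± 0.53, adjusted p = 0.184). Psmb10 was even across KO saline, at 23.9, 24.8 and 28.1 CPM (-1.73 ± 0.51, adjusted p = 0.176), while Psmb9 was called on few counts (-1.90 ± 0.76, adjusted p = 0.203) and Psmb8 was not called (-1.36 ± 0.94, adjusted p = 0.430). In the base, Psmc5 had 86.3, 93.5 and 113 CPM in KO saline, below its 139, 185 and 178 in WT saline (-0.77 ± 0.39, adjusted p = 0.282), and Psmd4 had 89.6, 104 and 110 (-0.92 ± 0.43, adjusted p = 0.252). The latter value was the same, -0.92, without the 2 libraries that stood apart. Psmd14 fell by 1.29 and Psmg4 by 1.45 on the log2 scale, with adjusted p of 0.214 and 0.176. The base chaperone gene Psmd10 was not called (-0.92 ± 0.55, adjusted p = 0.356).

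Psmd11 was higher in every KO saline library, at 41.1, 38.4 and 33.1 CPM, than in any WT saline library (0.78 ± 0.34, adjusted p = 0.228). Both paired activator genes were called lower, Psme1 from 136, 143 and 73.3 CPM to 48.4, 61.7 and 51.1 (-1.12 ± 0.44, adjusted p = 0.200) and Psme2 by 1.63 (adjusted p = 0.178). Psme4, whose product activates the core in the nucleus, had 82.4, 124 and 101 CPM in KO saline and a narrow range of 69.3 to 73.3 in WT saline (0.52 ± 0.35, adjusted p = 0.417), so the groups were apart although it was not called. Psme3 (-0.41 ± 0.31, adjusted p = 0.470), Psmf1 (-0.52 ± 0.32, adjusted p = 0.367) and Psmc3ip (-0.47 ± 0.54, adjusted p = 0.642) were not called, and Psmf1 was called without the 2 libraries (-0.72 ± 0.28, adjusted p = 0.235).

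**Figure D3:**
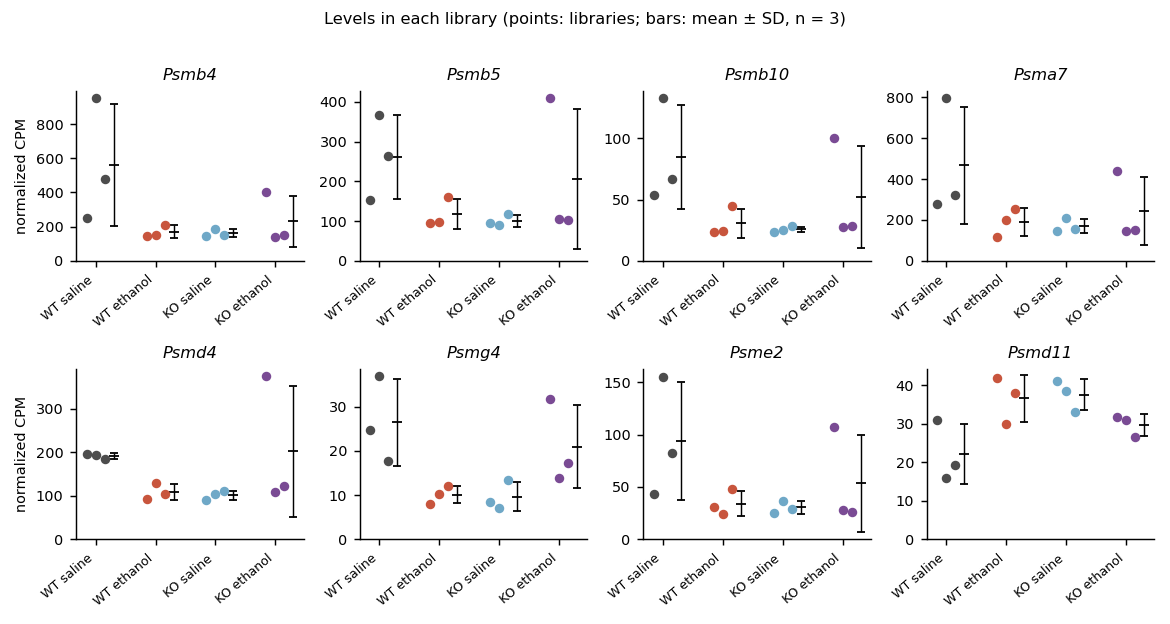
Normalized CPM (vertical axes) of 8 proteasome genes in the 4 groups (horizontal axes), with points for libraries and bars for the mean ± SD (n = 3). Psmb4 reaches 953 in WT saline replicate 2, Psmd4 lies between 184 and 196 in WT saline and at 374 in the library labelled KO ethanol replicate 1, and Psmd11 is lowest in WT saline.

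In KO mice, no member was called between ethanol and saline, nor was any of the 14739 genes (0.0%). At an unadjusted p of 0.05 there were 2 members, Psmg4 and Psmd4, and 465 genes in all (3.15%), and DESeq2 called 0 members as well (0.0204% of all genes). The median of the members was 0.35, and it was -0.21 without WT saline replicate 2 and the library labelled KO ethanol replicate 1, so its sign rests on that library. Psmg4 stood at 8.51, 7.03 and 13.4 CPM in KO saline and at 31.8, 13.9 and 17.3 in KO ethanol (1.04 ± 0.45, adjusted p = 0.999). For Psmd4, 374 CPM in the library labelled KO ethanol replicate 1 contrasted with 109 and 123 in the other KO ethanol libraries (0.98 ± 0.43, adjusted p = 0.999). Psmc4 followed with 0.85 ± 0.42. The summed member level of the other 2 KO ethanol libraries, 4107 and 4232 CPM, lay below the 3 KO saline libraries.

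Between KO and WT mice after ethanol, no member was called either (0.0% of all genes), and 1 member, Psmg4, had an unadjusted p under 0.05 (3.24% of all genes). DESeq2 also called 0 (0.0204%). The values were 0.98 ± 0.45 for Psmg4, 0.87 ± 0.43 for Psmd4 and 0.82 ± 0.42 for Psmc4, each with an adjusted p of 0.982. The median was 0.27, and -0.29 without the 2 libraries.

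The Genotype x Treatment interaction, which tests whether the response to ethanol differed between WT and KO mice, was called for 11 of the 47 members, all with positive values, where 11.1% of all genes were called 5.64% with positive and 5.43% with negative values. At an unadjusted p of 0.05 there were 21 (15.2% of all genes) and at an adjusted p of 0.05 none (0.0%). The members' median was 1.30, against -0.11 for all genes. The smallest p were those of Psmg4 (2.44 ± 0.62, adjusted p = 0.250), Psmb10 (2.41 ± 0.73, adjusted p = 0.250) and Psmb4 (2.22 ± 0.72, adjusted p = 0.250). No member was called without WT saline replicate 2 and the library labelled KO ethanol replicate 1 (median 0.25, 0.193% of all genes). Nor was any called without the first (0.133%) or the second of them (0.233%). The same held without WT ethanol replicate 1 (0 of 14908 genes) or 2 (112 of 15026), or KO saline replicate 1 (0 of 15036) or 2 (0 of 15031). In contrast, 6 were called without WT ethanol replicate 3 (734 of 15008 genes) and 20 without KO ethanol replicate 3 (1708 of 14976). Without WT saline replicate 1, 32 were called (33.8% of all genes).

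As main effects, neither Treatment nor Genotype gave a called member, at 0.00678% and 0.0% of all genes, and none had an unadjusted p under 0.05 (7.09% and 7.67% of all genes). DESeq2 called 0 in both (1.95% and 1.11% of all genes). For Treatment the smallest p were those of Psmd10 (-0.71 ± 0.39), Psma3 (-0.75 ± 0.43) and Psmb4 (-0.61 ± 0.36), with adjusted p from 0.707 to 0.715. For Genotype they were those of Psmb3 (-0.88 ± 0.42), Psma2 (-0.87 ± 0.42) and Psma3 (-0.89 ± 0.43), with an adjusted p of 0.623. The medians were -0.24 and -0.30. Without WT saline replicate 1, 10 members were called for Treatment (23.3% of all genes) and 20 for Genotype (33.2%), and without the library labelled KO ethanol replicate 1 these were 2 (4.82%) and 20 (16.5%).

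Transcript length moved with these differences. The tested members were short, with a median of 1387 bases against 2957 for all tested genes. In WT ethanol versus WT saline, all tested genes of up to 1000 bases had a median log2 fold change of -1.10 and those over 5000 bases one of 0.56. In that shortest class all 9 members were called, and so were 51.0% of the 949 genes, with medians of -1.38 and -1.10. From 1000 to 2000 bases, 13 of 27 members and 24.9% of all genes were called (-0.86 and -0.46). Of the 11 members over 2000 bases, Psma2 and Psmd11 were called. In the classes from 2000 to 3000, from 3000 to 5000 and over 5000 bases, 14.8%, 17.9% and 26.7% of all genes were called. In KO saline versus WT saline the shortest class had medians of -1.47 for the members and -1.31 for all genes. The medians of the members were thus below those of all genes in both classes up to 2000 bases, by differences that were not tested, while single members lay above their class median, up to -0.93 in the shortest class and -0.08 in the next in WT ethanol versus WT saline. The fit with trends removed, above, took out length and GC content together, and the part of length alone was not tested.

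**Figure D4:**
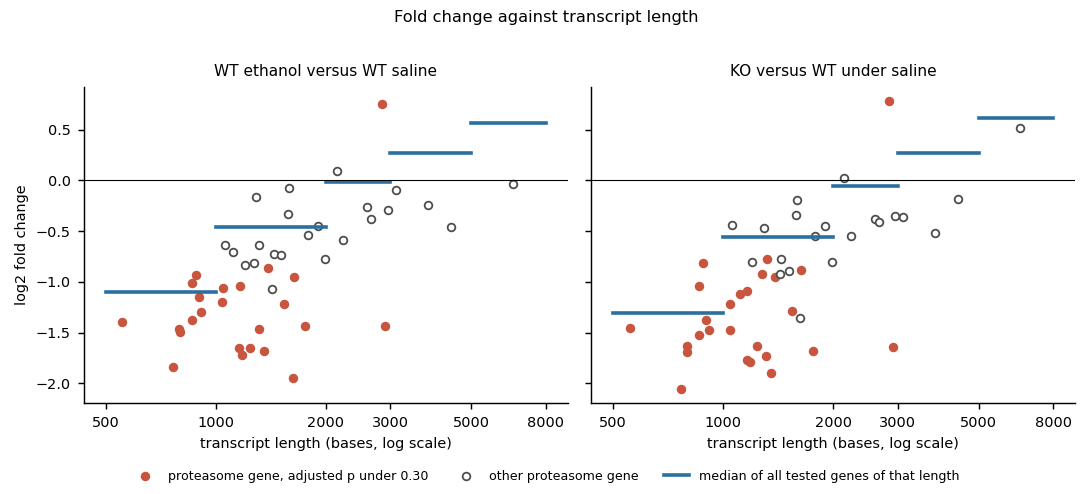
Log2 fold change (vertical axis) against transcript length in bases (horizontal axis, log scale) for the tested members, filled where the adjusted p was under 0.30, in both contrasts against WT saline. Horizontal lines give the median of all tested genes in 5 length classes, from -1.10 for up to 1000 bases to 0.56 for over 5000 bases in WT ethanol versus WT saline.

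Other groups of short housekeeping genes were lower in the same contrasts by larger amounts. Of 81 tested cytosolic ribosomal protein genes, 75 were called lower in WT ethanol versus WT saline, with a median of -2.15, and 78 in KO saline versus WT saline, with -2.43. Of 77 nuclear-encoded oxidative phosphorylation genes, 62 and 69 were called lower, with -1.58 and -1.81. Their median lengths were 805 and 720.5 bases. The proteasome medians of -0.86 and -0.92 were closer to 0 than either.

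Of the other genes of the pathway, 32 were tested. In WT ethanol versus WT saline, 6 were called lower and 3 higher, with a median of -0.35, and in KO saline versus WT saline 8 lower and 2 higher, with -0.32. Over all genes 22.5% and 25.8% were called, so the 9 and 10 calls of 32 are near the background and are given as values of single genes. Pomp, the chaperone that completes the core, was called lower in both (-1.36 ± 0.64, adjusted p = 0.274, and -1.42 ± 0.64, adjusted p = 0.244), as was Shfm1, the small lid subunit that the symbol pattern misses (-1.45 ± 0.56, adjusted p = 0.217, and -1.57 ± 0.56, adjusted p = 0.182). So were Txnl1, a lid-bound thioredoxin-like protein (-1.14 and -1.25), and Rps27a, a fusion gene of ubiquitin with a ribosomal protein (-2.38 and -2.78). The polyubiquitin gene Ubb (-1.04, adjusted p = 0.288) and the nuclear import factor gene Akirin2 (-0.68, adjusted p = 0.256) were called lower in KO saline, and Uchl5, a deubiquitinase of the base, in WT ethanol (-1.0, adjusted p = 0.236).

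Of the 5 genes listed for the transcription of proteasome genes, 2 were called in WT ethanol and 1 in KO saline, all higher. Over all genes 12.1% and 12.4% were called higher, and these few calls are given as values of single genes. Nfe2l1, which encodes the factor that drives proteasome genes, was called higher in WT ethanol, at 204, 96.96 and 141 CPM against 116, 46.1 and 91.6 in WT saline (0.81 ± 0.39, adjusted p = 0.286), and the groups overlapped. Ddi2, the protease that activates this factor, was called higher in both contrasts (1.98 ± 0.77, adjusted p = 0.220, and 1.75 ± 0.76, adjusted p = 0.233). It had less than 1 count in WT saline replicate 1 and in the library labelled KO ethanol replicate 1, the 2 shallowest, and stood at 2.82 and 6.45 CPM in the other WT saline libraries against 11.2 to 16.6 in WT ethanol. Uba6, a ubiquitin-activating enzyme, was called higher in both (1.04 and 1.53). Of the 9 tested shuttle and segregase genes, including Vcp, none was called in either contrast.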

How the data were processed

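Stranded RNA-Seq of total RNA was analysed in 12 libraries. Per the methods, TopHat, running Bowtie2, mapped the reads to mm10. Partek Flow then assigned them to RefSeq transcripts, and the authors deposited estimated counts and RPKM for each of 35840 transcripts. The counting settings were not given in the sources used here. The deposited RPKM summed to nearly the same total in every library, by a scaling that the methods do not describe. The members and gene lists were chosen with earlier results of these data known.

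Estimated counts were summed per symbol and rounded. edgeR 4.0.16 (filterByExpr, TMM factors, quasi-likelihood test, two-sided) was fitted to all libraries in R 4.3.3 with 1 mean per group, and p-values were Benjamini-Hochberg adjusted over 14739 genes. A gene was called at an adjusted p under 0.30, the level of the study, with counts at 0.05 beside it. Fold changes are log2 with standard errors (SE). Library totals of 719735 to 17066392 limit the precision: 3 counts equal 5.02 CPM in the shallowest library and 0.170 in the one with the lowest such limit, which covers counting error only. Named in both contrasts against WT saline were the catalytic and inducible beta subunit genes, the activators and the inhibitor. So were the members with the smallest p by role and Psmd11, called with the opposite sign. In the other comparisons the 3 members with the smallest p were named. Psmb1, Psmb2, Psmb3, Psma1, Psmd6 and the genes called without certain libraries were named after their values were seen.

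Alternatives were DESeq2 1.42.0, limma 3.58.1 on log2(RPKM + 1) and log2(RPKM + 0.1), other scalings, filters, covariates, length and GC trends and left-out libraries. Leaving out WT saline replicate 2 together with the library labelled KO ethanol replicate 1 was chosen after seeing the data. The fitting steps were tested on simulated counts. Some genes of the pathway list are not reported here.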

Additional observations from a re-analysis of the deposited data

Results flagged for a closer look

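The response to ethanol differed between KO and WT mice, by the Genotype x Treatment term of edgeR's quasi-likelihood test at an adjusted p under 0.30, for 11 proteasome genes, all with positive log2 values. In the core these were Psma7 (1.82), Psmb3 (2.34), Psmb4 (2.22), Psmb5 (2.17), Psmb6 (2.36) and the inducible Psmb10 (2.41). In the base they were Psmc4 (1.59) and Psmd4 (1.79), and outside both particles the activator Psme2 (2.19) and the core chaperones Psmg3 (1.62) and Psmg4 (2.44). Their adjusted p ran from 0.250 to 0.285, and 11.1% of all genes were called. None of the 11 was called without WT saline replicate 2, without the library labelled KO ethanol replicate 1, or without both.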

How the results depend on the processing

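Counts of called members are given in the order WT ethanol versus WT saline, KO versus WT under saline, and interaction, against 24, 26 and 11. They were 0, 0 and 0 at an adjusted p under 0.05, 1, 2 and 1 with limma on log2(RPKM + 1), 0, 0 and 0 with log2(RPKM + 0.1), 42, 44 and 24 without the libraries named with L, 3, 5 and 0 with length and GC trends removed, and 11, 15 and 0 without both libraries in which the members stood highest, an alternative chosen after seeing the data. Without the libraries named with L, 8295, 8435 and 4322 of all 14967 tested genes were called. With limma on log2(RPKM + 0.1) these were 191, 86 and 1 of 14739. Library size without TMM factors gave 8 and 15 in the first pair, and a fit of only the groups compared gave 0 in the first (39 of 14006 genes). The interaction had 24 calls with DESeq2, 22 with at least 10 counts in every library, 21 at an unadjusted p under 0.05. It had 0 with the letter of the library name as a covariate, as did all 14739 genes. Over all genes, the interaction was called for 2665 of 14739 with DESeq2 and 1871 of 7624 with at least 10 counts in every library. With limma on log2(RPKM + 1) it was called for 106 of 14739, and with length and GC trends removed for 24 of 14581. At an unadjusted p under 0.05, KO ethanol versus KO saline had 2 and KO versus WT after ethanol 1. Main effects of Treatment and Genotype had 35 and 41 without the libraries named with L, and Genotype 3 without both highest libraries. Over all genes these were 6885 and 7563 of 14967, and 547 of 15007. Leaving out 1 library gave 0 to 41, 0 to 43 and 0 to 32, 0 to 10 for Treatment, 0 to 20 for Genotype and 0 in the other contrasts. The causes were not tested.

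Of 1358 values of named genes under an alternative, 1013 kept their direction and side of the threshold, 282 lost and 43 gained the call, and 20 changed sign, none of them called. In WT ethanol versus WT saline, library size without TMM factors gave Psme3 0.04, Psme4 0.41, Psmf1 0.14 and Psmc3ip 0.47. Psme4 was 0.11 with at least 10 counts in every library and -0.56 to 0.17 over the fits that leave out 1 library. Psmc3ip was 0.01 and 0.06 with limma, 0.41 with length and GC trends removed, 0.41 without both libraries and -0.59 to 0.42 with 1 library left out. In KO versus WT under saline, library size alone gave Psme3 0.04 and Psmc3ip 0.14, removing length and GC trends gave Psme4 -0.25 and Psmc3ip 0.22, and Psmd10 and Psmc3ip were 0.08 and 0.11 without both libraries, and -1.35 to 0.08 and -0.88 to 0.12 with 1 library left out. No paired analysis was possible because the labels give no replicate numbers shared between groups. The shallowest library, with 719735 counts, limits what could be seen in KO ethanol.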
